A study of Caenorhabditis elegans with 4 samples.

Results

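The scrm genes of Caenorhabditis elegans encode phospholipid scramblases, and 8 protein-coding genes carry a scrm symbol with a number in the WBcel235 annotation. Of these 8, 3 had a row among the 13758 rows of the deposited table, namely scrm-1, scrm-3 and scrm-4, matched by sequence name. The other 5, scrm-2, scrm-5, scrm-6, scrm-7 and scrm-8, had no matching row and were not analysed here. The family was taken by name, but scrm-4 was selected on its measured CPM in the mutant against wild type in these same libraries, so that comparison is given for the 3 genes as a description, without a p-value.

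Whole early adults of 2 strains were compared by mRNA sequencing, with 2 biological replicates each, numbered 3 and 4. The mutant was strain GG14, which carries the allele g14 of fasn-1, the gene for fatty acid synthase, and the wild type was N2 (Bristol). Both groups had spent 8 days without food at 20 °C as hatchlings, a halt of growth called L1 arrest, and were then fed HT115 bacteria carrying an empty vector, on plates with 25 µg/ml carbenicillin and 1 mM IPTG, for about 68 hours until eggs were seen. The mutant group is 1 strain with 1 allele, each library pooled many animals, and there was no group without starvation among the libraries analysed here.

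A scramblase moves phospholipids in both directions between the leaflets of a membrane, which undoes the uneven distribution that flippases, ATP-driven pumps, keep up. Phosphatidylserine is held on the inner leaflet of healthy cells, and its appearance on the outer leaflet marks a dying cell for engulfment by its neighbours. In C. elegans, SCRM-1 takes part in this exposure and is stimulated by WAH-1, a mitochondrial protein released during cell death. The protein family is named after the mammalian PLSCR proteins, which bind calcium.

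The recovered depth was between 13960509 and 15889424 reads per library, and 1 read was worth between 0.0628 and 0.0676 CPM (counts scaled to library size, as normalized by the authors). The mutated gene itself, fasn-1, stood at 353 and 285 CPM in the mutant and at 369 and 410 CPM in wild type (log2 change -0.29, SE 0.11; limma, adjusted p = 0.1196), so the level of its transcript does not check the labels. That change was -0.45 without mutant replicate 3 and -0.14 without mutant replicate 4, fits with a lone mutant library, so its size depended on single libraries. Across the 12977 genes tested, 572 were higher (4.41%) and 1386 lower (10.7%) in the mutant. These libraries also differed in markers of tissues. Of the short marker lists, 5 of 5 pharynx genes and 5 of 7 neuron genes tested were lower, and 2 of 4 sperm genes tested, msp-3 and msp-57, were higher. Both of these passed the filter on low values, 1 CPM in at least 2 libraries, only through the mutant libraries, so no count is read from them, and the sperm genes spe-11 and ssp-16 failed it. Of the other marker lists, body wall muscle had 2 of 6 lower, epidermis 1 higher and 1 lower of 6, intestine 1 of 5 higher and oocytes 0 of 6 past the threshold (0 with an unadjusted p below 0.05 in limma). The summed level of the pharynx markers was 126 to 275 CPM in the mutant and 1074 to 1155 CPM in wild type. That of the 6 sperm markers with a row, msp-3 and msp-57 included, was 16.4 to 20.4 CPM in the mutant. In wild type it was 5.65 to 9.92 CPM. Of these 6, only spe-41 had a lower mean in the mutant, with overlapping groups. It was measured at 4.19 and 3.37 CPM in the mutant against 3.83 and 5.46 CPM in wild type. No marker with a row was at 0 in any library. In whole animals, fewer cells of a type and less RNA per cell cannot be told apart, and the part of these tissues in the results below was not tested.

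Both strains transcribed the measured family members at very different levels, and scrm-4 took another place among them in the mutant. scrm-4 was the most abundant of the 3 in both mutant libraries, whereas scrm-1 was the most abundant in both wild-type libraries. scrm-3 was the lowest in every library. Of the 3, only scrm-4 differed by a large factor between the groups, with a mean 10.9 times higher in the mutant. Because scrm-4 was selected on that difference, its contrast with scrm-1 and scrm-3 is a description.

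scrm-4 (F11A6.2, WBGene00008681) is on the minus strand of chromosome I at 11680899 to 11682441 (WBcel235), with 6 exons that add up to 994 bases and a coding length of 780 bases. It was measured at 37.8 CPM (559 reads) in mutant replicate 3 and at 48.3 CPM (746 reads) in mutant replicate 4. In wild type it was measured at 2.64 CPM (42 reads) in replicate 3 and at 5.26 CPM (78 reads) in replicate 4. Both mutant libraries were thus far above both wild-type libraries, and the groups did not overlap. The lower mutant library exceeded the higher wild-type library 7.18-fold, and the higher mutant library exceeded the lower wild-type library 18.3-fold. The mean was 43.0 ± 7.45 CPM in the mutant and 3.95 ± 1.85 CPM in wild type (SD, n = 2 each). On the log2(CPM + 1) scale the change was 3.20 (SE 0.28, 95% interval 2.55 to 3.84).

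Replicates differed in scrm-4 by more than counting error, though by much less than the groups did. The exact 95% Poisson intervals, which cover counting error only, ran from 34.7 to 41.04 CPM in mutant replicate 3 and from 44.9 to 51.9 CPM in mutant replicate 4. In wild type they ran from 1.90 to 3.57 CPM in replicate 3 and from 4.16 to 6.57 CPM in replicate 4. Within neither group did the intervals meet. The ratio of replicate 4 to replicate 3 was 1.28 in the mutant and 1.99 in wild type.

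scrm-1 (T22H2.5, WBGene00011935), the family member with a known part in phosphatidylserine exposure, lies on the same strand of chromosome I at 11688673 to 11690836. It was measured at 15.4 CPM (228 reads) and 13.5 CPM (209 reads) in mutant replicates 3 and 4, against 15.5 CPM (247 reads) and 15.4 CPM (229 reads) in wild-type replicates 3 and 4. All 4 libraries lay within a narrow band, and the 4 Poisson intervals, which together span 11.8 to 17.6 CPM, all overlapped. The mean was 14.5 ± 1.33 CPM in the mutant and 15.5 ± 0.0503 CPM in wild type (SD, n = 2 each), a log2 change of -0.09 (SE 0.16, 95% interval -0.48 to 0.29). Of the absolute changes of all genes tested, 23.5% were smaller.

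scrm-3 (C04E12.7, WBGene00015437), on the minus strand of chromosome V at 3355848 to 3357206, was close to the detection limit. It had 8 and 10 reads in mutant replicates 3 and 4, or 0.541 and 0.648 CPM, against 5 and 17 reads in wild-type replicates 3 and 4, or 0.314 and 1.15 CPM. The wild-type libraries enclosed the mutant ones, so the groups overlapped. Having reached 1 CPM in a single library, scrm-3 did not pass the filter on low values, which asked for 1 CPM in at least 2 libraries. Without that filter its log2 change was -0.08 (SE 0.28, 95% interval -0.73 to 0.58), an interval that covers changes in both directions at this depth.

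**Figure D1:**
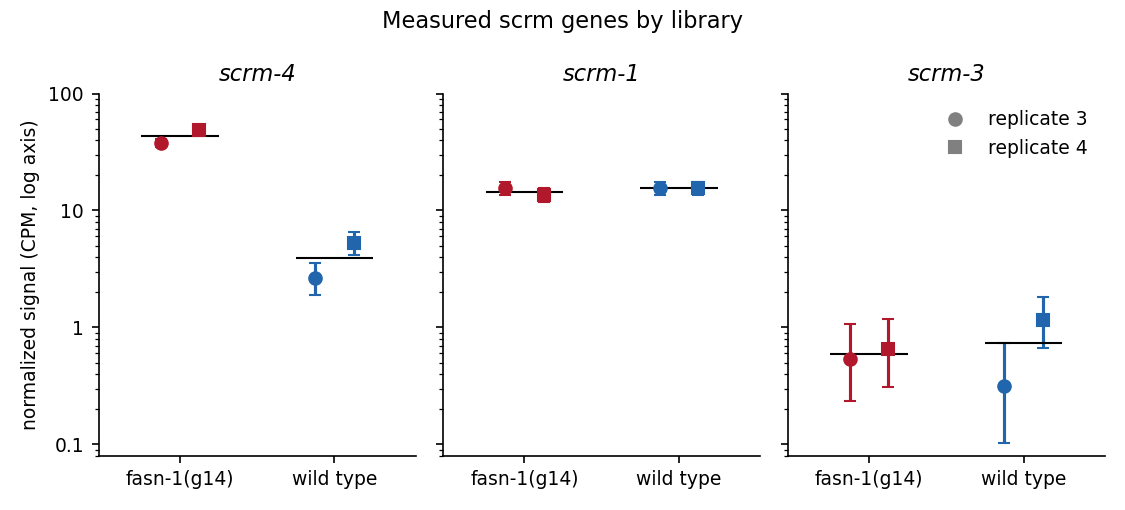
Normalized signal of scrm-4, scrm-1 and scrm-3 in each library, in CPM on a log axis, with mutant libraries on the left of each panel and wild-type libraries on the right. Points are single libraries with their exact 95% Poisson intervals and the horizontal line is the group mean. For scrm-4 the mutant libraries stand at 37.8 and 48.3 CPM and the wild-type libraries at 2.64 and 5.26 CPM, while scrm-1 stays between 13.5 and 15.5 CPM.

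Of the 2 family members tested, 1, scrm-4, was past the threshold in the fit over all genes (limma, Benjamini-Hochberg adjusted p below 0.05), in the higher direction, as were 4.41% of all genes tested. For groups that did not overlap with the mutant higher, the share of all genes was 31.2%, and with the mutant lower, as for scrm-1 by a margin far below its counting error, it was 32.9%. Since scrm-4 was chosen for this difference, nothing is read from these counts. As a description, the rise of scrm-4 ranked 3 among the log2 changes of the 12977 genes tested. That rank holds for the log2(CPM + 1) scale, which understates changes of low genes, and was not computed on other scales. The genes with larger rises, named after their values were seen, were F15D4.5, with a log2 change of 6.01 (SE 0.14), and F15D4.6, with 3.76 (SE 0.23). Among 3072 genes whose wild-type mean lay within a factor of 2 of that of scrm-4, between 1.98 and 7.90 CPM, the median log2 change was -0.32, and 1 had a larger rise than scrm-4.

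**Figure D2:**
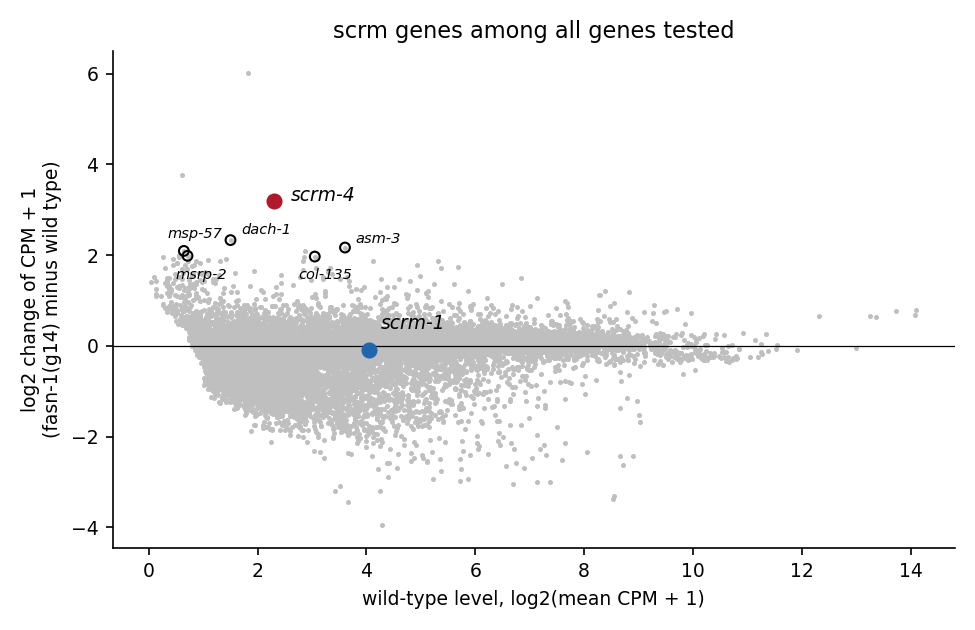
Log2 change of CPM + 1, mutant minus wild type, against the wild-type level as log2(mean CPM + 1), for the 12977 genes tested (grey points). scrm-4 (3.20) lies near the top and scrm-1 (-0.09) in the middle of the cloud. Open circles mark the 5 genes nearest to scrm-4 by pattern among those with a symbol of letters and a number.

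Divided by annotated exon length, so that genes can be compared with each other, scrm-4 stood at 38.004 and 48.6 CPM per kilobase in the mutant libraries and at 2.65 and 5.29 CPM per kilobase in the wild-type libraries. On the same scale scrm-1 stood at 9.93 and 8.72 in the mutant and at 10.0 and 9.95 in wild type, and scrm-3 at 0.600 and 0.719 in the mutant and at 0.349 and 1.27 in wild type. In the mutant the order was therefore scrm-4, scrm-1, scrm-3, and in wild type scrm-1, scrm-4, scrm-3, with no overlap between neighbours in either order. Among 13747 genes, the per-length mean of scrm-4 was above 76.0% in the mutant and above 31.4% in wild type. That of scrm-1 was above 48.6% in the mutant and above 47.9% in wild type, near the middle of all genes, and that of scrm-3 was above 9.43% in the mutant and above 6.90% in wild type.

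Ratios within a library do not depend on how libraries were scaled to each other. The per-length ratio of scrm-4 to scrm-1 was 3.83 and 5.57 in mutant replicates 3 and 4, against 0.265 and 0.532 in wild-type replicates 3 and 4. scrm-4 was thus above scrm-1 in both mutant libraries and below it in both wild-type libraries. Of the summed CPM of the 3 genes, scrm-4 made up 70.3% and 77.3% in the mutant libraries and 14.3% and 24.1% in the wild-type libraries. The sum itself was 53.7 and 62.5 CPM in the mutant and 18.5 and 21.9 CPM in wild type, a difference carried by scrm-4.

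The position of scrm-4 was examined because another measured scrm gene lies close to it on the chromosome. scrm-1 lies 6231 bases upstream of scrm-4 on the same strand, with 2 annotated genes between them, and its values are those given above. On chromosome IV scrm-5 and scrm-8 are also neighbours, 211 bases apart, but neither had a row. At its 3′ end scrm-4 overlaps kpc-1 (F11A6.1), a gene for a furin-like proprotein convertase on the opposite strand, over 77 bases at 11680899 to 11680975, which lie in exons of both genes and make up 7.75% of the exon bases of scrm-4. The deposited signal per gene holds no strand information, so the 2 genes cannot be separated over these bases here. How the authors' counting treated such reads is not stated in the sources used here. kpc-1 was measured at 77.9 and 49.5 CPM in mutant replicates 3 and 4, against 57.9 and 66.7 CPM in wild-type replicates 3 and 4. The mutant libraries enclosed the wild-type ones, in contrast to scrm-4, and the log2 change was 0.00 (SE 0.20; limma, adjusted p = 0.999). This near-zero change rested on opposite deviations of the mutant libraries. It was -0.32 without mutant replicate 3 and 0.32 without mutant replicate 4, fits with a lone mutant library. F11A6.15, the nearest coding gene on the other side of scrm-4, had no row.

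Within 50 kb of scrm-4, 8 other genes had a row and 5 of them were tested, of which 0 were higher, against 4.41% of all genes tested, 2 were lower, against 10.7%, and 3 did not pass. The progranulin gene pgrn-1, 19.2 kb away, was measured at 38.9 and 43.4 CPM in the mutant and at 34.9 and 36.4 CPM in wild type (log2 change 0.20, SE 0.11; limma, adjusted p = 0.255). Those called lower, W04G5.8 and W04G5.10, passed the filter only through the wild-type libraries, which left little room for the other direction, so nothing is read from their count. They were low in every library, with 0.405 and 0.194 CPM for W04G5.8 in the mutant against 1.38 and 1.82 CPM in wild type, and with 0 in both mutant libraries for W04G5.10 against 1.01 and 1.42 CPM in wild type (limma, adjusted p = 0.0378 and 0.0252). The highest log2 change among the 8 was 0.23, for F35E2.9, which failed the filter.

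**Figure D3:**
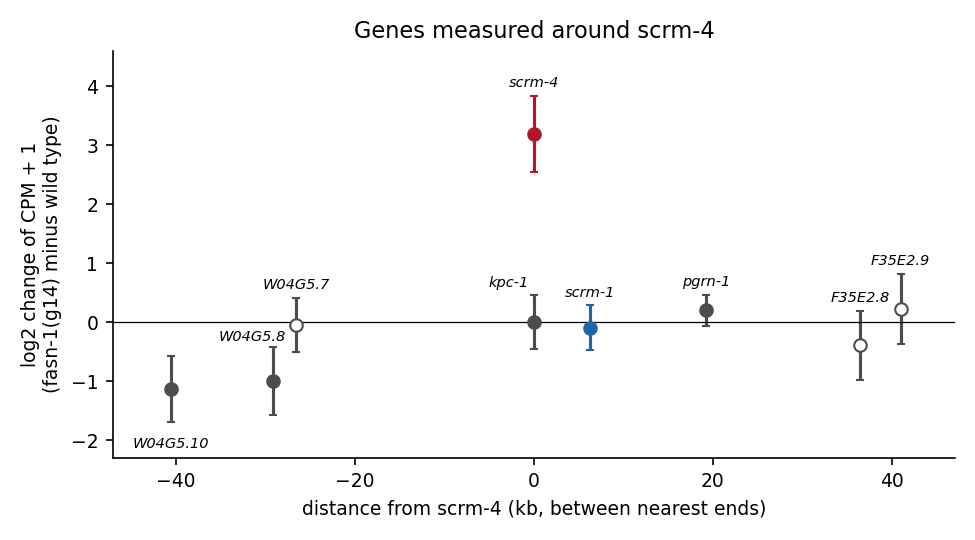
Log2 change of CPM + 1, mutant minus wild type, with its 95% interval, for scrm-4 and the 8 other genes with a row within 50 kb, by distance from scrm-4 in kb. Filled points were tested and open points failed the filter on low values. scrm-4 stands at 3.20, and the others lie between -1.14 and 0.23.

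The pattern of scrm-4 was compared only with tested genes that have a symbol of letters and a number. Genes known by a sequence name alone, such as F15D4.6, were left out, and some may lie nearer. Nearness was the Euclidean distance of log2(CPM + 1) minus the wild-type mean over 4 libraries. The nearest of the genes compared were dach-1, asm-3, msp-57, msrp-2 and col-135, at distances of 1.27 to 1.74. Among the 7759 genes compared the median distance was 4.55, and scrm-1 was at 4.70. asm-3, for an acid sphingomyelinase, was measured at 47.7 and 57.9 CPM in the mutant against 8.73 and 13.6 CPM in wild type. dach-1 was measured at 10.9 and 15.9 CPM in the mutant against 1.51 and 2.16 CPM in wild type. The cuticle collagen gene col-135 was measured at 27.9 and 33.5 CPM in the mutant against 5.40 and 9.17 CPM in wild type. Like scrm-4, each of the 5 was higher in replicate 4 than in replicate 3 of both groups. Choosing genes by distance over these same values favours that shared order, so nothing is read from it. msp-57, for a major sperm protein with near-identical copies among which reads can be split, was measured at 4.66 and 6.54 CPM in the mutant against 0.251 and 0.877 CPM in wild type. It passed the filter on low values only through the mutant libraries. msrp-2 was measured at 4.39 and 5.83 CPM in the mutant against 0.0628 (1 read) and 1.21 CPM in wild type. With 4 libraries, and with the nearest genes picked from so many, this likeness is a description.

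**Figure D4:**
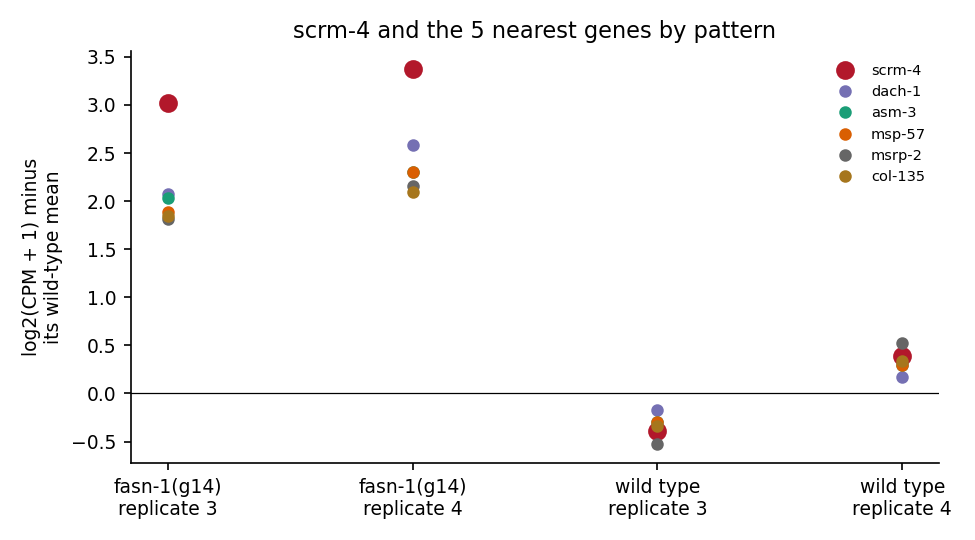
log2(CPM + 1) minus its wild-type mean for scrm-4 and 5 other genes, in each of the 4 libraries, mutant libraries on the left. The 5 are the nearest by pattern among genes with a symbol of letters and a number. The mutant values of scrm-4 are 3.02 and 3.37, above those of the other 5 genes.

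The genes that work beside the scramblases were counted as lists. Because scrm-4 was chosen for its rise, a contrast of these lists with scrm-4 was fixed in advance and is not read. Of 41 genes in 5 lists on phospholipid asymmetry and its readers, all had a row and 40 were tested. In the mutant 0 were higher, against 4.41% of all genes tested, 1 was lower, against 10.7%, and 39 did not pass (limma, adjusted p below 0.05). Their median log2 change was 0.11, against 0.00 for all genes tested, and 38 of the 40 lay within 0.5 of 0. The share of all genes within that band was not computed, so nothing is read from the 38. These counts depended on single libraries, as did those of all genes. Without mutant replicate 3, 11 were higher and 6 lower, when 18.1% and 25.2% of all genes tested were. Without mutant replicate 4, 3 were higher and 1 lower, when 7.68% and 14% of all genes were. Without wild-type replicates 3 and 4 in turn 0 passed, when 1.16% and 1.17% of all genes were higher and 3.43% and 1.38% were lower. An unadjusted p below 0.05 was reached by 1 of 5 scramblases of other families, 2 of 8 flippases and partners, 4 of 15 cell death and engulfment genes, 2 of 8 phospholipid synthesis genes and 3 of 4 annexins, against 32.9% of all genes tested (limma).

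Scramblases of other families were led in level by those of internal membranes. epg-3, the VMP1 homolog that acts in autophagy, was measured at 92.1 and 89.2 CPM in the mutant against 80.9 and 80.9 CPM in wild type, and atg-9, for a scramblase of autophagosome formation, at 114.6 and 94.3 CPM in the mutant against 91.5 and 88.0 CPM in wild type. Neither passed (limma, adjusted p = 0.207 and 0.216). ced-8, for the Xk-related protein that promotes phosphatidylserine exposure after cleavage by the caspase CED-3, was measured at 5.68 and 8.09 CPM in the mutant against 6.03 and 7.62 CPM in wild type, with overlapping groups (log2 change 0.00, SE 0.25; limma, adjusted p = 0.999). The anoctamin gene anoh-1 was measured at 0.473 and 0.130 CPM in the mutant against 1.01 and 1.42 CPM in wild type, which did not overlap, with a log2 change of -0.77 (SE 0.26; limma, adjusted p = 0.0847). Without mutant replicate 3, which leaves a lone mutant library, that change was -0.96. The gene had met the filter on low values only through the wild-type libraries. Its relative anoh-2 was measured at 6.56 and 5.83 CPM in the mutant against 6.03 and 6.54 CPM in wild type.

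Of 8 flippases and partners tested, 0 were called higher, against 4.41% of all genes tested, and 0 lower, against 10.7%. Their median log2 change was 0.11, against 0.00 for all genes tested. tat-1, for the flippase that returns phosphatidylserine to the inner leaflet, was measured at 143.5 and 143.2 CPM in the mutant against 117 and 126 CPM in wild type. That difference of 0.24 on the log2 scale (SE 0.08) did not pass (limma, adjusted p = 0.0824). The log2 change of tat-1 was 0.23 without mutant replicate 3 and 0.24 without mutant replicate 4, fits with a lone mutant library. Its chaperone gene chat-1 was measured at 100.6 and 91.3 CPM in the mutant against 93.1 and 92.3 CPM in wild type. tat-6 did not pass the filter on low values.

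Of 15 genes tested for phosphatidylserine exposure, cell death and engulfment, 0 were called higher, against 4.41% of all genes tested. None was called lower, against 10.7%. The median log2 change was 0.13, against 0.00 for all genes tested. Failing the threshold does not show that a level was unchanged. wah-1, whose product stimulates SCRM-1, was measured at 92.9 and 96.8 CPM in the mutant against 97.4 and 100.1 CPM in wild type (log2 change -0.06, SE 0.08, 95% interval -0.24 to 0.13; limma, adjusted p = 0.652). The widest shifts in the list ran from -0.22 for ttr-52, whose product bridges phosphatidylserine to engulfing cells, to 0.31 for ced-10, a Rac GTPase of engulfment (limma, adjusted p = 0.0588 for ced-10). Of the 8 genes of phosphatidylserine and neighbouring phospholipid synthesis 0 passed in either direction, against 15.1% of all genes tested. Their log2 changes ran from -0.07 to 0.50. There pssy-1, for phosphatidylserine synthase, was measured at 27.6 and 29.8 CPM in the mutant against 29.1 and 28.6 CPM in wild type.

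Annexins, proteins that bind phospholipids in the presence of calcium, lay below 0 in all 4 log2 changes, with a median of -0.34, and 1 of the 4 was called lower, against 10.7% of all genes tested. That gene, nex-4, passed the filter on low values only through the wild-type libraries, so the count is not read further. It was measured at 0.676 and 0.324 CPM in the mutant against 3.46 and 3.58 CPM in wild type, 2 groups far apart at a low level. Its log2 change was -1.60 (SE 0.25; limma, adjusted p = 0.0128), and it no longer passed without wild-type replicate 3 (-1.62) or without wild-type replicate 4 (-1.58). The abundant annexin gene nex-1 was measured at 164.4 and 156.6 CPM in the mutant against 181.3 and 193.9 CPM in wild type, and its change of -0.22 did not pass (limma, adjusted p = 0.0897).

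**Figure D5:**
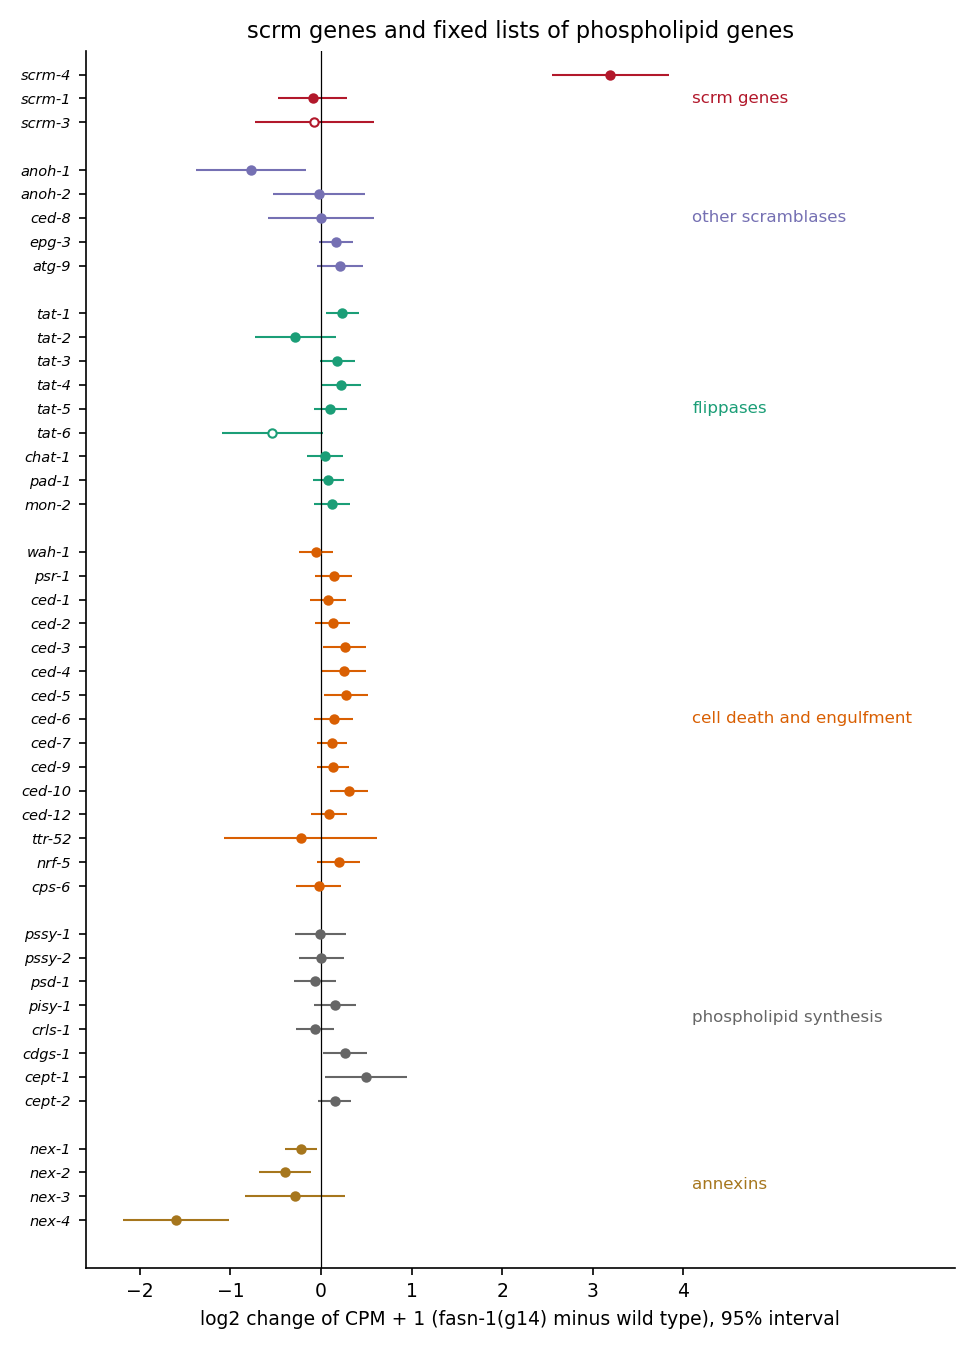
Log2 change of CPM + 1, mutant minus wild type, with its 95% interval, for the 3 measured scrm genes and the 41 genes of the 5 lists; open points failed the filter on low values. scrm-4 stands at 3.20, while the other genes lie between -1.60 for nex-4 and 0.50 for cept-1.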

How the data were processed

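The authors deposited a normalized signal per gene in CPM, with 1 column per library. The tools they named, per the submitters' processing notes, were edgeR 3.28.1, HTSeq 0.12.4 and Bowtie2 2.3.3.1; what each did, the genome build and the gene filter are not stated in the sources used here. A further 8 columns in the table were not used. Every positive value was a whole multiple of its column's smallest step within 0.001 read (100% of values in each library), so reads were recovered. Rows were named by the Ensembl release 115 annotation of WBcel235 (13747 of 13758 matched 1 gene). The deposited signal was tested with limma 3.58.1 (R 4.3.3) on log2(CPM + 1) with a mean-variance trend, two-sided, with Benjamini-Hochberg adjustment over the 12977 genes that reached 1 CPM in 2 or more libraries; 781 rows were left out. This scale understates changes of low genes, and folds without "log2" are ratios of mean CPM. edgeR 4.0.16 and DESeq2 1.42.0 on recovered reads were alternatives. Only the limma fit was run on simulated reads, with a fixed spread between replicates that was not matched to these libraries. Nothing is read from that run. Replicates differed beyond sampling noise (chi-square 13.3 times its degrees of freedom in the mutant and 4.58 times in wild type). The scrm genes and all lists were chosen with earlier results of these data known. Named genes were fasn-1, the measured scrm genes, and list members past the threshold with anoh-1, ced-8, tat-1 and wah-1. Coding genes beside or overlapping a scrm gene were also named. So were the 5 genes nearest to scrm-4 by pattern among those with a symbol of letters and a number. Others were chosen after their values were seen. Reads without molecular identifiers are not independent molecules.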

Additional observations from a re-analysis of the deposited data

How the results depend on the processing

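The log2 change of scrm-4 lay between 2.43 (pseudocount of 5 CPM) and 3.59 (without wild-type replicate 4) over 12 alternatives, and that of scrm-1 between -0.19 (plain CPM) and -0.01; since scrm-4 was selected on this change, these ranges are a description. Counts over all genes (572 higher, 1386 lower) became 288 and 509 when a mean of 5 CPM was required and 359 higher with plain CPM; 913 were lower with edgeR on recovered reads. Leaving out single libraries gave 151 to 2346 higher and 179 to 3268 lower. In those fits 1 group had a lone library, assumed to vary like the other pair. For the 5 lists the same fits gave 0 to 11 higher and 0 to 6 lower; 0 were lower when that mean was required, which removes nex-4, 2 with plain CPM and 2 with the replicate block. With the replicate number as a block, the log2 change of scrm-4 was 3.20 (SE 0.26). The labels do not say that a number marks a shared culture, and the replicate differences of the groups correlated at -0.21 across genes; a crossed pairing, added after seeing the data, gave 1197 higher and 2310 lower. The log2 change of kpc-1 was 0.0013 with a pseudocount of 5 CPM, 0.032 with edgeR, 0.0401 with DESeq2, and -0.32 to 0.32 leaving out single libraries. For ced-8 it was -0.085 with plain CPM, and -0.22 to 0.22 leaving out single libraries. The cause of these shifts was not tested. With 2 libraries per group, small changes of low genes such as scrm-3 could not be resolved.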
